A study of Danio rerio with 75 samples.

Results

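The skin of zebrafish aged 12 months was compared with the skin of fish aged 6 months, in 10 RNA sequencing libraries, 5 of each age, out of 25 grouped skin libraries and 73 grouped libraries of the whole series. Members were chosen by the tissue and age given in the sample labels, with no measured value used, and all genes of the count table were kept. Each of the 10 libraries came from a different single fish. By the study's methods all fish were male, and tissue was taken in the hours about midday. The strain label of the 6 month fish is AB JxTu, with no transgene listed. The 12 month fish are labelled AB JxTu Tg(flk:mCherry), a reporter line whose red fluorescent protein is driven by the flk (kdrl) promoter of endothelial cells. All 5 fish of an age thus belong to 1 line, and age and line cannot be told apart in this comparison. The fish of 24 months again carry no listed transgene, and their levels are given where they show how a gene stood in a later group. Skin libraries of 36 and 42 months were used in the same way, and the line of those fish is not given here. The fish of 6 months replicate 3 also gave to a library put in no group whose label lists Tg(wt1a:GFP), so its strain label is in conflict.

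Zebrafish skin is a stratified epidermis of keratinocytes with mucous cells and ionocytes, which lies over dermal scales built by osteoblast-like cells, fibroblasts, pigment cells, vessels and nerves. The fish is sexually mature at a few months of age, so that the comparison lies within adult life. Growth of skin draws on ribosome production, protein turnover and cell division, and keratinocytes are held together by desmosomes made of cadherins such as desmogleins and desmocollins.

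Total counts ranged from 33632427 to 48935972 per library, and the correlation of log2 counts-per-million (CPM) between libraries was 0.945 to 0.978. On a principal component analysis the component of the largest share, with 27.6% of the variance, separated the ages without overlap. The next component, with 19.1%, put 6 months replicates 1 and 2 at 46.2 and 50.1 and the other 3 libraries of that age at -33.3 to -0.41. These 2 libraries stood apart from their group in several results below, and counts without them are given there. Keratinocyte markers were high at both ages, with krt5 at 32020 ± 5103 CPM (SD, n = 5) at 6 months and 25110 ± 4670 CPM (SD, n = 5) at 12 months. Several other cell type markers, among them epcam, muc5.1 and pecam1, were not analysed here. Muscle RNA was present in all 10 libraries, with a list of muscle genes summing to 28100 to 63980 CPM at 6 months and 35040 to 88930 CPM at 12 months, and 0 of its 55 genes tested differed. The endothelial gene kdrl, whose promoter drives the reporter, stood at 70.9 ± 12.4 and 56.1 ± 17.5 CPM (SD, n = 5) and was not called (log2 fold change -0.34, SE 0.27, adjusted p = 0.457 with edgeR). Liver genes summed to 1597 CPM in 6 months replicate 3 and 1116 CPM in 12 months replicate 5 and to 61.3 to 281 CPM in the other 8 libraries. In such bulk samples fewer cells of a type and less RNA per cell cannot be told apart.

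Of 22429 genes tested, 2031 (9.06%) differed at an adjusted p under 0.05 in edgeR's quasi-likelihood test. They divided into 1066 genes (4.75%) that were higher and 965 (4.3%) that were lower at 12 months. A difference of at least 2-fold was seen for 738 of them, 265 higher and 473 lower. Fold changes are given on the log2 scale as 12 minus 6 months, and levels as CPM after TMM normalisation. The standard error (SE) of a fold change was worked out from its size and the F statistic of the test. The median over all genes was -0.006. The 5 and 5 libraries did not overlap for 1223 of the called genes and for 8.86% of all genes tested, 4.79% in the higher and 4.08% in the lower direction. Without 12 months replicate 1 the number of called genes was 1192, without 6 months replicate 3, 4 or 5 it was 1244, 1230 or 1207, and without 12 months replicate 3 or 4 it was 1353 or 1330. Without 6 months replicates 1 and 2 together, an alternative chosen after the data were seen, 2646 genes differed and 1402 of the 2031 were kept. In that fit 1425 genes were higher and 1221 lower. List counts from it given below stand beside these totals and not beside the 4.75% and 4.3%. The number of genes tested in that fit is not given here. Its list counts therefore have no share of all genes beside them and are a description only.

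Genes for ribosome assembly and mitochondrial ribosomal proteins were called higher in 12 month skin in 41 of 105 and 35 of 77 cases, and smaller numbers for tRNA modification and loading, the pentose phosphate and serine pathways and the proteasome. Of the condensin and spindle genes 10 of 17 were called lower. The counts in each gene group are shown in the plot of gene groups.

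**Figure D1:**
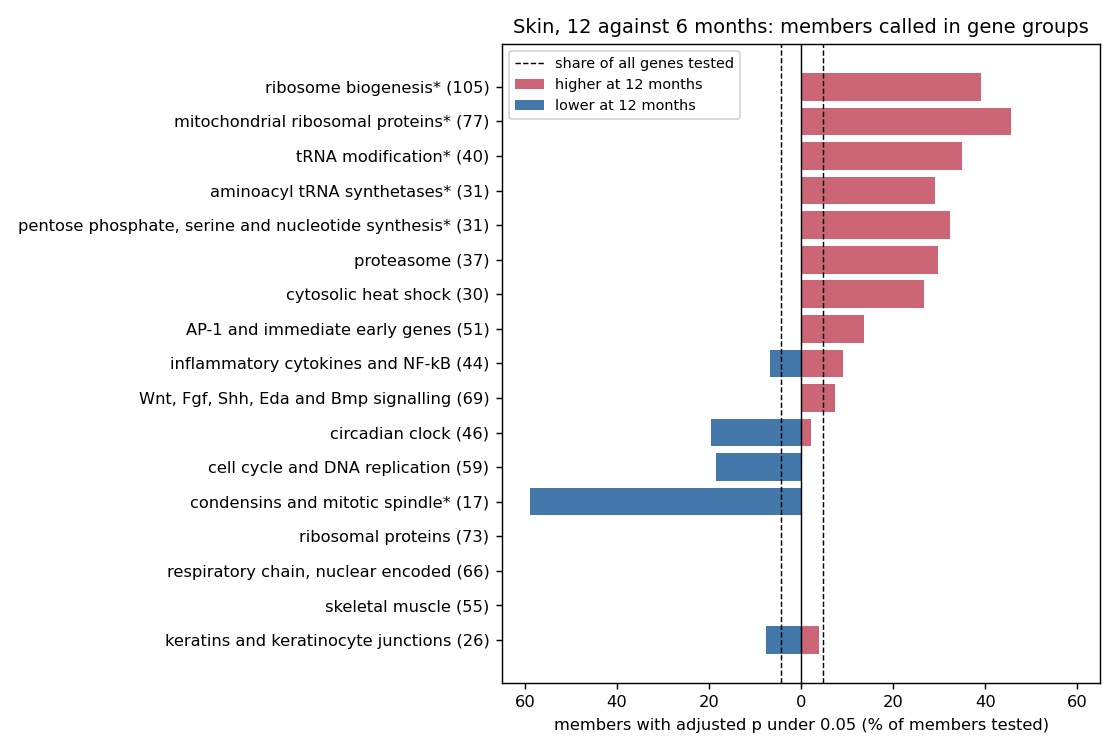
Share of the genes tested in each group that were called higher or lower in 12 than in 6 month skin (x axis, percent; y axis, gene groups, with an asterisk for the groups added after the data were seen). Mitochondrial ribosomal proteins (45.5% higher), ribosome biogenesis (39%) and condensins and mitotic spindle (58.8% lower) lie far from the shares over all genes of 4.75% higher and 4.3% lower.

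Ribosome biogenesis covers the factors that process and assemble ribosomal RNA and proteins in the nucleolus. Of 105 such genes tested, 41 were higher and 0 lower at 12 months, against a background of 4.75% of all genes, and 102 had a fold change above 0 with a median of 0.43. Their summed level overlapped between the ages, at 3603 to 4155 CPM at 6 months and 3905 to 4775 CPM at 12 months. This group and the other groups marked with an asterisk were written after members had been seen among the called genes, so their counts describe the data and are no independent evidence. The gene naf1 (ENSDARG00000057929), which encodes an assembly factor of small nucleolar and telomerase ribonucleoproteins, stood at 6.62, 5.17, 4.49, 4.91 and 4.58 CPM in 6 months replicates 1 to 5 and at 13.4, 9.23, 9.09, 11.13 and 11.5 CPM in 12 months replicates 1 to 5. Every 12 month library lay above every 6 month library, and the rise was 1.08 (SE 0.18, adjusted p = 0.00199). Levels of tsr1 (ENSDARG00000007744), a maturation factor of the small ribosomal subunit, were 24.3 to 36.6 CPM at 6 months and 40.1 to 59.5 CPM at 12 months (0.78, SE 0.14, adjusted p = 0.00329). The RNA cyclase-like factor rcl1 rose by 0.65 and the nucleolar acetyltransferase nat10 by 0.70. These 4 genes remained called when any 1 library was left out. The number of genes called higher in the group was 20 to 43 over those fits and 22 without 6 months replicates 1 and 2. The ribosomal proteins themselves did not follow, with 0 of 73 genes called in either direction and a median of 0.01, and their sum was 67760 to 94510 CPM at 6 months and 68780 to 88430 CPM at 12 months.

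Mitochondrial ribosomes translate the few proteins encoded by the mitochondrial genome, and their own proteins are made from nuclear genes. All 77 tested genes of mitochondrial ribosomal proteins had a fold change above 0, with a median of 0.41, and 35 were called higher and 0 lower, against the 4.75% of all genes. Their summed level was 911, 1118, 927, 1142 and 1106 CPM in the libraries of 6 months and 1480, 1242, 1384, 1383 and 1330 CPM in those of 12 months. The lowest 12 month library thus stood above the highest 6 month library. Of single members, mrpl40 (ENSDARG00000043554), a protein of the large subunit, went from 6.23 to 8.10 CPM to 10.5 to 13.1 CPM (0.73, SE 0.12, adjusted p = 0.00179). Likewise mrpl39 rose by 0.67 (SE 0.11) and mrps18a, of the small subunit, by 0.63 (SE 0.13). Between 13 and 34 genes were called with 1 library left out, 21 without 6 months replicates 1 and 2, and 23 after a correction for gene length, described below. The subunits of the respiratory chain encoded in the nucleus had 0 of 66 genes called, although 63 had a fold change above 0 and the median was 0.27. For the 13 genes of the mitochondrial genome 0 were called and the median was 0.16.

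**Figure D2:**
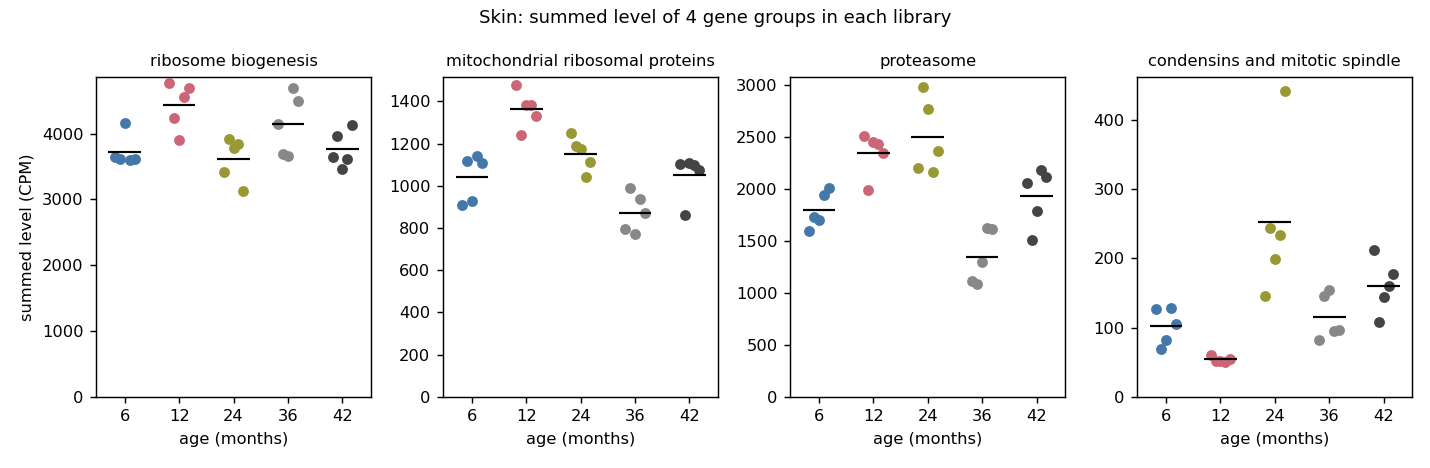
Summed level (CPM, y axis starting at 0) of the genes of 4 groups in each skin library at 6, 12, 24, 36 and 42 months (x axis); points are libraries and the line is the mean. The mitochondrial ribosomal proteins sum to 911 to 1142 CPM at 6 months and to 1242 to 1480 CPM at 12 months.

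Genes that prepare tRNA for translation were also called more often than the 4.75% of all genes. Of 40 genes of tRNA modification 14 rose and 0 fell (4 to 13 with 1 library left out), with a median of 0.37, and their sum was 263 to 275 CPM at 6 months and 323 to 386 CPM at 12 months. The tRNA deaminase subunit adat2 rose by 0.77 (SE 0.16) and the methyltransferase nsun2 by 0.51 (SE 0.12). Of 31 aminoacyl tRNA synthetases, the enzymes that load amino acids on tRNA, 9 rose and 0 fell (4 to 11 with 1 library left out). Among them were rars (1.01, SE 0.24), for arginine, and hars2 (0.72, SE 0.15), the mitochondrial enzyme for histidine. The synthetases summed to 1211 to 1481 CPM at 6 months and 1471 to 2418 CPM at 12 months, with overlap. Of 10 subunits of the RNA exosome, a complex that trims and degrades RNA, 4 rose and 0 fell (2 to 4 with 1 library left out), with exosc10 at 0.38 (SE 0.08). Mitochondrial protein import had 4 of 19 genes higher (1 to 5 with 1 library left out), with timm9 (0.71, SE 0.14) at the smallest p. The summed levels of the exosome and import groups also overlapped between the ages. These groups, which are not in the plot, were likewise written after members had been seen among the called genes. With 6 months replicates 1 and 2 left out, 11 genes of tRNA modification and 3 synthetases were called higher.

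The pentose phosphate pathway yields NADPH and ribose, and serine synthesis feeds one-carbon units to nucleotides. Of 31 genes of these pathways and of nucleotide synthesis 10 rose and 0 fell, against 4.75% of all genes. Their sum was 1512 to 2205 CPM at 6 months and 2339 to 3446 CPM at 12 months, with no overlap. The aminotransferase gene psat1 (ENSDARG00000016733) stood at 4.89, 4.59, 5.92, 8.17 and 6.30 CPM at 6 months and at 17.4, 13.2, 18.03, 20.2 and 17.9 CPM at 12 months. The rise of 1.54 (SE 0.32, adjusted p = 0.00617) was seen in all 5 libraries. PSPH (ENSDARG00000040314), the phosphatase of the last step of serine synthesis, was at 15.4 to 22.1 CPM at 6 months and 36.6 to 51.6 CPM at 12 months (1.17, SE 0.20, adjusted p = 0.00214). The purine enzyme gene ppat rose by 1.02 (SE 0.23). For pgd, a dehydrogenase of the pentose phosphate pathway, 6 months replicate 5 stood at 190 CPM beside 74.4 to 91.8 CPM in the others and 194 to 372 CPM at 12 months (1.48, SE 0.41, adjusted p = 0.0296). The call of pgd was lost without any of 7 libraries, at an adjusted p of up to 0.0729.

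In glycolysis 2 of 34 genes rose and 2 fell, 5.88% each way against 4.75% and 4.3% of all genes. The isomerase gene gpia (ENSDARG00000012987) rose from 124.1 to 164.7 CPM to 202 to 285.5 CPM (0.86, SE 0.18, adjusted p = 0.00758), and aldocb by 1.06 (SE 0.29), a call that was lost without any of 6 libraries. The regulator pfkfb3 fell by 1.45 (SE 0.43) and the glucose transporter slc2a1b by 0.86 (SE 0.26), and these calls were lost without any of 8 and 6 libraries, at adjusted p values of up to 0.126 and 0.124. In cholesterol synthesis only ggps1, a prenyl synthase beside the main path, was called (fell by 0.76, SE 0.18). That is a share of 4.35% lower, near the 4.3% of all genes. The median of the 23 genes was 0.90 all the same, and their sum was 3713 to 12040 CPM at 6 months and 10200 to 17500 CPM at 12 months, with a wide spread among libraries of 1 age. The farnesyl synthase gene fdps, for one, was at 218 ± 188 and 907 ± 350 CPM (2.06, SE 0.97, adjusted p = 0.182). In lipid synthesis and storage 1 of 34 genes rose (2.94%) and 2 fell (5.88%), against 4.75% and 4.3% of all genes. The elongase gene elovl7b rose from 2.55 to 10.1 CPM to 10.5 to 32.8 CPM (1.68, SE 0.42, adjusted p = 0.0176), and pparg, a regulator of lipid storage, fell by 0.50 (SE 0.16), a call lost without any of 9 libraries.

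The proteasome degrades proteins tagged with ubiquitin. All 37 genes of its subunits had a fold change above 0, with a median of 0.38, and 11 were called higher and 0 lower, against 4.75% of all genes. The core subunit gene psma5 (ENSDARG00000003526) was at 47.8, 44.6, 45.4, 59.1 and 64.7 CPM at 6 months and at 86.5, 72.7, 93.3, 87.1 and 85.02 CPM at 12 months. That is a rise of 0.70 (SE 0.14, adjusted p = 0.00472) with no overlap. A smaller rise of 0.42 (SE 0.10, adjusted p = 0.011) was found for psma6b. The call of the ATPase subunit psmc2 (0.46, SE 0.13) was lost without any of 4 libraries, at an adjusted p of up to 0.0665. The count of subunits called was 2 to 13 with 1 library left out, 3 without 6 months replicates 1 and 2 and 3 after the correction for gene length, and the median stayed between 0.32 and 0.43 in these fits.

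Cytosolic heat shock proteins fold other proteins under stress. Of 30 genes 8 rose and 0 fell, against 4.75% of all genes, with a median of 0.83, but the 12 month libraries were uneven. The inducible gene hsp90aa1.1 stood at 51.7, 91.3, 27.7, 71.2 and 81.0 CPM at 6 months and at 186.5, 82.0, 113.1, 502 and 452 CPM at 12 months (2.05, SE 0.51, adjusted p = 0.0173). It overlapped between ages through 12 months replicate 2, and without 12 months replicate 4 the adjusted p was 0.0525. The same replicate 2 was among the lowest of its age for hsp70l, at 5.25 CPM beside 24.3 CPM in replicate 4 (1.52, SE 0.44, adjusted p = 0.0327, lost without any of 5 libraries). The co-chaperone gene stip1 rose by 0.54 (SE 0.13, adjusted p = 0.0503 without 12 months replicate 1). Leaving out 1 library gave 1 to 8 genes called in this group and leaving out 6 months replicates 1 and 2 gave 4. Of antioxidant enzymes 3 of 36 rose, a share of 8.33% against 4.75% of all genes. They were gsto2 (0.87, SE 0.21), txn2, the thioredoxin of mitochondria (0.47, SE 0.12), and mt2, a metallothionein that binds zinc and copper.

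**Figure D3:**
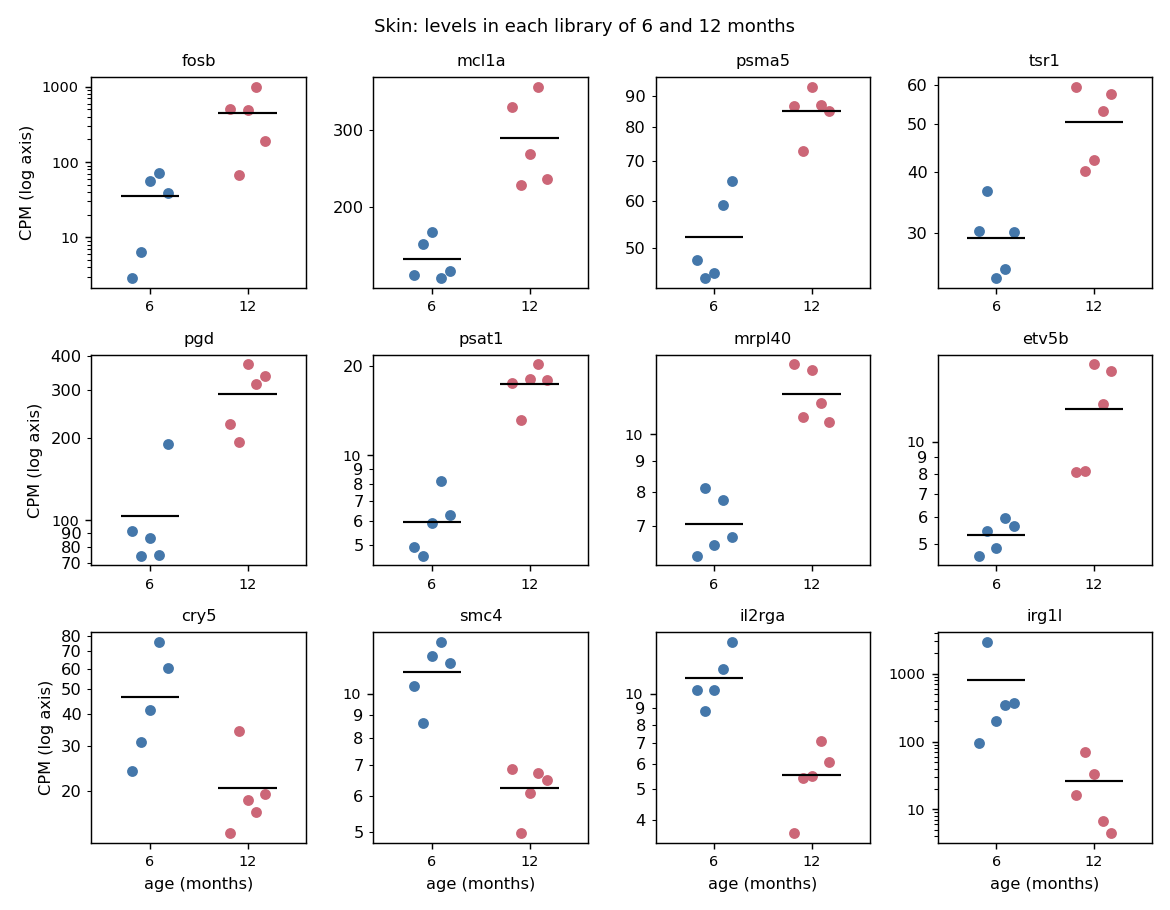
Levels (CPM, log axis) of 12 genes in each library of 6 and 12 months (x axis); points are libraries and the line is the mean. In psma5, psat1, tsr1, mrpl40 and etv5b every 12 month library lies above every 6 month library, and in smc4 and il2rga below, while fosb and cry5 overlap.

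Part of the genes of cell division were called lower at 12 months. Of 59 genes of the cell cycle and DNA replication 11 fell and 0 rose, against 4.3% of all genes, and the median was -0.59. The summed level of this list overlapped between the ages, at 436.7 to 620.3 CPM at 6 months and 419.2 to 576.4 CPM at 12 months. A group of condensins and mitotic spindle proteins was written after members had been seen among the called genes. Genes of the cell cycle list were not kept out of it, so it is no independent evidence. In this group 10 of 17 genes fell and all 17 had a fold change below 0, with a median of -1.01. Their summed level was 127, 68.5, 81.8, 128 and 105.6 CPM at 6 months and 61.03, 52.1, 51.1, 50.7 and 54.9 CPM at 12 months, so the 12 month libraries were both lower and closer together. The condensin gene smc4 (ENSDARG00000038882), needed to compact chromosomes, stood at 8.64 to 13.0 CPM at 6 months and 4.98 to 6.86 CPM at 12 months (a fall of 0.84, SE 0.19, adjusted p = 0.0108). Its partner ncapg fell by 1.15 (SE 0.29), the spindle gene aspm by 1.36 (SE 0.32) and e2f8, an atypical E2F factor of the cell cycle, by 1.41 (SE 0.33). The calls of smc4, ncapg, aspm and e2f8 held without any single library, while that of top2a, a topoisomerase (fell by 1.16, SE 0.32), was lost without any of 5 libraries at an adjusted p of up to 0.0595. Between 5 and 14 genes of the cell cycle list and 7 to 13 of the condensin and spindle group were called lower with 1 library left out. At 24 months, in fish with no listed transgene, the condensin and spindle group summed to 145.7 to 441.9 CPM, and against the same 6 month libraries 16 of its 17 genes and 45 of 59 of the cell cycle list were higher, with 10.7% of all genes called higher and 9.49% lower there. Not every group turned in this way. Of the proteasome genes 23 of 37 were higher and 0 lower at 24 against 6 months. Ribosome biogenesis had 21 of 105 genes higher and 2 lower there, and mitochondrial ribosomal proteins 16 of 77 higher and 1 lower. The 2 comparisons share the 6 month libraries.

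Keratins and keratinocyte junctions had 1 of 26 genes higher (3.85%) and 2 lower (7.69%), against 4.75% and 4.3% of all genes. The keratin gene krt1-19d (ENSDARG00000023082) rose from 85.6 to 162 CPM to 240 to 544 CPM (1.58, SE 0.34, adjusted p = 0.00702), and the general keratins krt4 and krt5 were not called. The desmosomal cadherin gene dsc2l (ENSDARG00000039677) was at 140 and 141 CPM in 6 months replicates 1 and 2, at 1672, 1626 and 1561 CPM in replicates 3, 4 and 5, and at 255, 105.6, 154, 191 and 265 CPM at 12 months. The fall of 2.41 (SE 0.58, adjusted p = 0.0151) therefore rested on 3 of 5 young fish, and the other 2 lay among the 12 month libraries. The pattern recurred in dsg2, another desmosomal cadherin, with 552 and 627 CPM in replicates 1 and 2, 2869 to 3232 CPM in the other 3, and 456 to 1039 CPM at 12 months (fell by 1.48, SE 0.40, adjusted p = 0.0245, lost without any of 6 libraries). A like split of the young fish was seen in klf3, a transcription factor gene chosen after its values were seen. It stood at 96.2 and 97.04 CPM in replicates 1 and 2, just above the 61.7 to 96.0 CPM of 12 months. The other 3 were at 245 to 385 CPM (fell by 1.66, SE 0.35). Without 6 months replicates 1 and 2 the fall was 3.05 for dsc2l and 2.04 for dsg2, and 10 of the 26 genes of the list were lower. These 2 libraries held the low young levels of both genes, so leaving them out had to widen the falls and adds no evidence. The list count comes from the same choice. Over all genes 1221 were lower in that fit.

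Skin ionocytes move ions and acid between the fish and the water, and carbonic anhydrases supply them with protons. The 26 ionocyte genes had 1 higher (3.85%) and 2 lower (7.69%), against 4.75% and 4.3% of all genes. The carbonic anhydrase gene ca15c (ENSDARG00000002259) was at 6.03, 69.3, 3.09, 4.45 and 10.1 CPM at 6 months and at 0.0816, 0.638, 0.0521, 0.0311 and 0.022 CPM at 12 months. It fell by 6.85 (SE 1.14, adjusted p = 0.00212), by 5.18 without 6 months replicate 2 and by 8.58 without 12 months replicate 2. In contrast ca2, a cytosolic carbonic anhydrase, rose from 29.3 to 80.8 CPM to 133.4 to 218.1 CPM (1.91, SE 0.45, adjusted p = 0.0123). The ionocyte regulator foxi3a was at 0.453 to 1.43 CPM at 6 months and 0.121 to 0.443 CPM at 12 months (fell by 1.62, SE 0.44, lost without any of 4 libraries), while its partner foxi3b, at 0.617 and 0.606 CPM on average, was not called.

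Few pigment and dermal genes were called. Of 14 melanophore genes 1 rose, a share of 7.14% against 4.75% of all genes. It was the melanosomal transporter slc45a2 (1.14, SE 0.29, lost without either of 2 libraries at an adjusted p of up to 0.051). In the melanophore list 11 fold changes were above 0 and 3 below, with a median of 0.49. Its summed level overlapped between the ages. Of 17 genes of iridophores and xanthophores 0 were called. Of 21 scale and mineralisation genes 2 rose, a share of 9.52% against 4.75% of all genes. Of these mgp, an inhibitor of calcification, rose from 4.27 to 9.19 CPM to 10.4 to 19.8 CPM (1.14, SE 0.27, adjusted p = 0.0128). The other call was enpp1, which makes the mineralisation inhibitor pyrophosphate (0.95, SE 0.26). It was at 58.9 to 66.2 CPM in 12 months replicates 3, 4 and 5 but at 18.99 and 24.57 CPM in replicates 1 and 2, within the 18 to 28.98 CPM of 6 months, and the call was lost without any of 5 libraries. In the fibrillar collagen and matrix list 2 of 42 genes fell, a share of 4.76% near the 4.3% of all genes, and 34 had a fold change below 0 with a median of -0.33. The genes called were elna, an elastin gene, at 28.1 to 35.0 CPM and 17.4 to 20.4 CPM (fell by 0.74, SE 0.23, adjusted p = 0.0423), and a copy of col6a3, and the calls were lost without any of the 10 libraries for elna, at an adjusted p of up to 0.0872, and without any of 9 for col6a3. Of 19 matrix proteases and inhibitors 1 rose, a share of 5.26% near the 4.75% of all genes. It was plaua, a urokinase-type plasminogen activator, which rose from 0.253 to 0.428 CPM to 0.871 to 1.15 CPM (1.74, SE 0.54, adjusted p = 0.0469). The call was lost without any of the 10 libraries at an adjusted p of up to 0.0974.

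Immune genes were called in small numbers per list. Of 21 genes of T and NK lymphocytes 2 fell (9.52%) and 0 rose, against 4.3% of all genes, with 16 fold changes below 0, while the summed level of the list was 442 to 631 CPM at 6 months and 561 to 640 CPM at 12 months. The cytokine receptor chain gene il2rga (ENSDARG00000068858) stood at 8.85 to 14.6 CPM and 3.65 to 7.12 CPM (a fall of 1.01, SE 0.22, adjusted p = 0.00777), which held without any single library. The leukocyte phosphatase gene ptprc (CD45) stood at 58.3 to 79.4 CPM and 37.7 to 52.8 CPM (fell by 0.64, SE 0.19, adjusted p = 0.034), a call lost without any of 7 libraries. For cd8a, the marker of cytotoxic T cells, the levels of 6.53 to 12.0 CPM and 1.25 to 4.88 CPM did not overlap, but the test missed the threshold (-1.41, SE 0.52, adjusted p = 0.0895). Of 15 genes of antigen presentation 1 fell, a share of 6.67% against 4.3% of all genes. It was the invariant chain gene cd74a, at 2172 to 2389 CPM at 6 months and 895 to 1924 CPM at 12 months (fell by 0.69, SE 0.21, lost without any of 8 libraries). Macrophage, neutrophil and B cell lists had 1 of 24, 0 of 23 and 0 of 15 genes called, against 9.06% of all genes. The 5 and 5 libraries did not overlap in the lower direction for 5 of the 24 macrophage genes, and in the higher direction for 1. For the 21 T and NK genes these counts were 6 and 0. Over all genes the shares were 4.08% lower and 4.79% higher. The 2 genes of CD180, a Toll-like receptor homologue of leukocytes, both fell. The cd180 gene stood at 3.32 to 10.7 CPM and 1.06 to 2.57 CPM (fell by 2.03, SE 0.39) and CD180 (1 of 2) at 1.84 to 15.6 CPM and 1.15 to 1.70 CPM (fell by 2.28, SE 0.49). Of immune genes chosen after their values were seen, the repressor bcl6a fell by 1.91 (SE 0.35), the cytokine signal transducers stat4 by 1.44 (SE 0.33) and stat3 by 1.03 (SE 0.26, and by 0.52 and not called without 6 months replicate 2), and the macrophage factor spic by 1.09 (SE 0.21). MPEG1 (2 of 3), a copy of the gene for a pore-forming protein of macrophages, fell by 8.02 (SE 1.25), with 6 months replicate 3 at 0.51 CPM among the 12 month levels and the other 4 at 58.4 to 230 CPM. The mean of this copy was 0.272 CPM at 24 months and 60.3 CPM at 36 months. The macrophage marker mpeg1 itself stood at 60.3 CPM at 6 months and 46.7 CPM at 12 months. It was not called (-0.37, SE 0.21, adjusted p = 0.272 with edgeR).

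Inflammatory genes went both ways, with 4 of 44 higher (9.09%) and 3 lower (6.82%) against 4.75% and 4.3% of all genes, and 0 to 4 higher and 1 to 3 lower with 1 library left out. The prostaglandin synthase gene ptgs2a rose from 120 to 176 CPM to 248 to 512 CPM (1.1995, SE 0.34, adjusted p = 0.0307), and the feedback inhibitor nfkbiaa of NF-kB by 0.94 (SE 0.27) and socs3a of cytokine signalling by 1.13 (SE 0.35). These 3 calls were lost without any of 5, 7 and 8 libraries. The NF-kB subunit gene rela fell from 16.7 to 22.3 CPM to 11.6 to 15.1 CPM (-0.50, SE 0.10, adjusted p = 0.00654) and kept its call throughout. The gene irg1l (ENSDARG00000062788), a relative of the mammalian enzyme that makes itaconate in macrophages, was at 95.6, 2969, 201, 345 and 375 CPM at 6 months and at 16.4, 70.06, 33.8, 6.78 and 4.46 CPM at 12 months. It fell by 4.92 (SE 1.23, adjusted p = 0.0177), by 5.72 without 12 months replicate 2, and by 3.27 with an adjusted p of 0.054 without 6 months replicate 2. That library was also alone for il34, a ligand of the macrophage receptor Csf1r, at 20.3 CPM beside 0.541 to 0.857 CPM, and without it the fall of il34 was 1.87 and not called. The call of il34 was lost without any of 5 libraries. The interferon list had 3 of 26 genes higher (11.5%, 0 to 4 genes with 1 library left out) and 1 lower, with isg15 at 1.09 (SE 0.32) and irf9 at 0.61 (SE 0.15), and irf1a fell by 2.01 (SE 0.56). Here irf1a was at 11.6 and 10.03 CPM in 6 months replicates 1 and 2 and at 1.56 to 2.28 CPM in the other 3, against 0.286 to 2.67 CPM at 12 months. The calls of isg15 and irf1a were lost without any of 5 libraries each, and that of irf9 without 6 months replicate 5, at an adjusted p of 0.0504.

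Immediate early genes are switched on within minutes of a stimulus. Of 51 genes 7 rose and 0 fell, against 4.75%. The AP-1 subunit gene fosb (ENSDARG00000055751) stood at 2.88, 6.47, 56.0, 71.0 and 38.4 CPM at 6 months and at 512, 66.4, 491.5, 1003 and 191.5 CPM at 12 months. The rise of 3.70 (SE 0.74, adjusted p = 0.00529) kept its call without any single library, and the groups overlapped in 12 months replicate 2. In mcl1a (ENSDARG00000009779), which opposes cell death, the levels of 137.1 to 175.4 CPM and 224 to 378 CPM did not overlap (0.92, SE 0.18, adjusted p = 0.00399). The rise of egr2a of 3.64 (SE 1.02, adjusted p = 0.03) was led by 20.4 and 9.42 CPM in 12 months replicates 1 and 4 beside 1.82 to 2.61 CPM in the others, and was 2.79 without replicate 1. Its call was lost without any of 6 libraries, at an adjusted p of up to 0.0925. With 1 library left out 2 to 8 genes of the list were higher, and without 6 months replicates 1 and 2 there were 4 higher and 2 lower. At 24 months, against the same 6 month libraries, 20 of the 51 genes were higher and 1 lower, beside 10.7% and 9.49% of all genes.

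The circadian clock turns on feedback of period and cryptochrome repressors on Clock and Bmal, and in zebrafish many of its genes respond to light. Of 46 clock genes 9 fell and 1 rose, against 4.3% and 4.75% of all genes, with a median of -0.18. The light-responsive gene cry5 (ENSDARG00000019498), a photolyase of the cryptochrome family, was at 23.9, 31.2, 41.4, 76.2 and 60.4 CPM at 6 months and at 13.8, 34.4, 18.5, 16.6 and 19.5 CPM at 12 months (fell by 1.18, SE 0.28, adjusted p = 0.0133). The period gene per2, also induced by light, stood at 75.4 to 210 CPM and 66.3 to 88.1 CPM (fell by 1.09, SE 0.29, lost without any of 5 libraries), with its lowest young value in 6 months replicate 1. The output factor gene tefb fell by 0.85 (SE 0.21, adjusted p = 0.0501 without 6 months replicate 3), whereas hlfb, of the same PAR bZIP family, rose by 1.33 (SE 0.31, adjusted p = 0.0128). Leaving out 1 library gave 2 to 8 genes lower, and leaving out 6 months replicates 1 and 2 gave 7 lower and 4 higher with a median of -0.01. The hour at which each fish was sampled is not given in the sources used here, and its part in this list was not tested.

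Signalling genes of skin growth had 5 of 69 members higher and 0 lower, a share of 7.25% against 4.75% of all genes. The Fgf target gene etv5b (ENSDARG00000044511) stood at 4.61 to 5.94 CPM at 6 months and at 8.11, 8.20, 16.9, 12.9 and 16.1 CPM at 12 months (1.23, SE 0.20, adjusted p = 0.002). The ligand genes bmp7a and wnt7aa rose by 1.01 (SE 0.19, adjusted p = 0.00337) and 1.3 (SE 0.32, adjusted p = 0.0152). Of the Wnt target axin2 the levels were 12.8 to 22.8 CPM and 23.9 to 34.6 CPM (0.78, SE 0.23, lost without any of 6 libraries). Without 6 months replicates 1 and 2 the list had 13 genes higher and 3 lower, while over all genes 1425 were higher and 1221 lower. In growth hormone and IGF signalling 2 of 37 genes fell, a share of 5.41% near the 4.3% of all genes. They were the receptors ghra (0.71 lower, SE 0.19) and igf1ra (0.63 lower, SE 0.19), lost without any of 4 and 8 libraries. Of 29 genes of sex steroid and thyroid signalling 2 fell, a share of 6.9% against 4.3% of all genes. In this list 25 fold changes were below 0, with a median of -0.51. The thyroid hormone receptor gene thrab fell by 0.66 (SE 0.20), lost without any of 7 libraries. In retinoic acid metabolism 1 of 35 genes rose, a share of 2.86% against 4.75% of all genes. It was the degrading enzyme gene cyp26a1 (1.96, SE 0.51, adjusted p = 0.0209), with a rise of 1.25 and no call without 12 months replicate 4. The call was lost without any of 3 libraries, that one included.

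Among the genes with no overlap that rose far were 3 fucosyltransferase copies. FUT9 (9 of 16) (ENSDARG00000058299), of a family that adds fucose to cell surface sugars, was at 0.129, 0.0604, 0.127, 0.143 and 0.197 CPM at 6 months and at 14.7, 25.5, 23.7, 9.01 and 9.25 CPM at 12 months (6.92, SE 1.04, adjusted p = 9.57e-04). FUT9 (10 of 16) and FUT9 (11 of 16) rose by 4.89 (SE 0.76) and 4.45 (SE 0.76). The other 8 of the 11 copies tested were not called, and reads of near-identical copies are uncertain. At 24 months the 3 copies split the libraries in the same way. FUT9 (9 of 16) stood at 18.2, 20.8 and 30.0 CPM in 3 of them but at 0.226 and 0.211 CPM in replicates 2 and 4. In these replicates FUT9 (10 of 16) was at 0.424 and 0.422 CPM and FUT9 (11 of 16) at 0.283 and 0.290 CPM, beside at least 8.71 and 5.96 CPM in the others. All 10 libraries of 36 and 42 months were at 8.17 to 25.5 CPM for FUT9 (9 of 16), so that its level was either near the background of 6 months or far above it, with no library in between.

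Other genes stood high in the 12 month libraries alone among the 5 ages. The gene si:dkeyp-1h4.8 (ENSDARG00000092833), chosen after its values were seen since clone names were left out of the rule, was at 0.0563 to 0.464 CPM at 6 months and at 644, 1034, 314, 413.5 and 401.5 CPM at 12 months (10.95, SE 0.77, adjusted p = 1.9e-08). At 24, 36 and 42 months it stood at 0 to 0.574 CPM. PARP6 (1 of 2) (ENSDARG00000078528), of the ADP-ribosyltransferase family, was at 3.71 to 4.61 CPM at 6 months, at 397, 240, 199, 34.4 and 46.4 CPM at 12 months and at 3.00 to 7.88 CPM in all 15 later libraries (5.44, SE 0.49). The helicase gene DDX11 (ENSDARG00000011072) went from 1.71 to 4.40 CPM to 12.3 to 18.2 CPM (2.45, SE 0.22), with 1.37 to 5.58 CPM at the later ages. These levels follow the 12 month group alone, which is also labelled as the reporter line, while the fish of 6 and 24 months list no transgene. The line of the fish of 36 and 42 months is not given here, so age and line cannot be told apart for these genes. The metallothionein gene mt2 rose from 5.54 to 17.6 CPM to 28.8 to 89.7 CPM (2.45, SE 0.40, adjusted p = 0.00179), and snai3, a transcription factor of the Snail family, by 2.22 (SE 0.52). The 12 month range of mt2 was reached by a library of a later age, and that of snai3 was not.

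**Figure D4:**
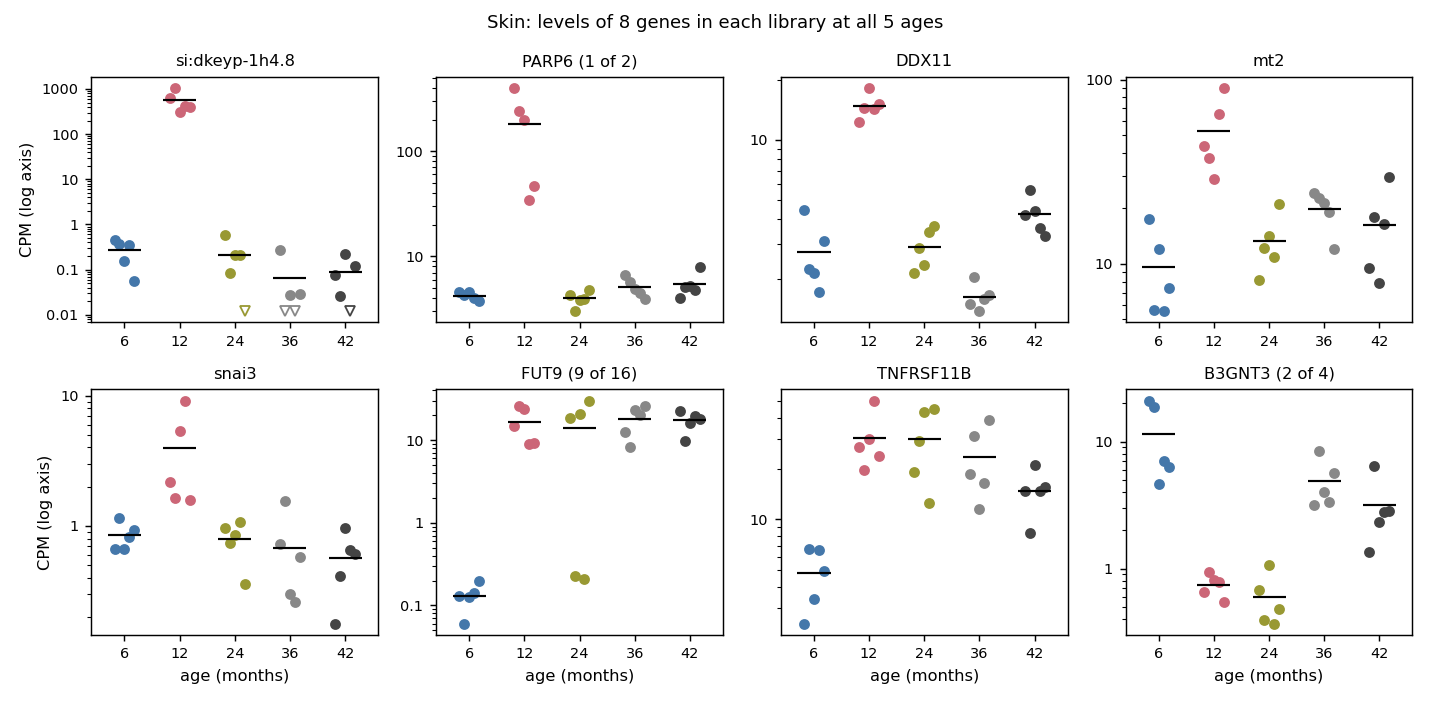
Levels (CPM, log axis) of 8 genes in each skin library at 6, 12, 24, 36 and 42 months (x axis); points are libraries, lines are means and open triangles are libraries with no count, drawn at an arbitrary height. The gene si:dkeyp-1h4.8 stands at 314 to 1034 CPM at 12 months and at no more than 0.574 CPM at the other ages, while FUT9 (9 of 16) stays high at later ages except in 2 libraries of 24 months.

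TNFRSF11B (ENSDARG00000034243), known as osteoprotegerin, a decoy receptor that restrains osteoclasts, rose from 2.42, 6.68, 3.38, 6.60 and 4.95 CPM to 27.0, 19.7, 29.8, 50.5 and 23.7 CPM (2.65, SE 0.40, adjusted p = 9.57e-04). Further genes that rose without overlap were fgfbp1, a carrier of Fgf ligands (2.21, SE 0.44), the chemokine gene ccl1 (2.14, SE 0.40) and the potassium channel gene kcnj1 (2.12, SE 0.41). On the lower side B3GNT3 (2 of 4) (ENSDARG00000054373), which extends sugar chains on glycoproteins, was at 21.0, 18.8, 4.65, 6.995 and 6.27 CPM at 6 months and at 0.549 to 0.941 CPM at 12 months (fell by 3.95, SE 0.48, adjusted p = 1.42e-04). Falls of ft2 and of GBGT1 (3 of 10), a gene of glycolipid synthesis, were 3.57 (SE 0.61) and 2.28 (SE 0.47). The calmodulin regulator gene pcp4b fell by 2.71 (SE 0.52), MFAP4 (7 of 13) by 2.04 (SE 0.49) and the amino acid transporter gene SLC7A3 (2 of 2) by 1.96 (SE 0.43), which was 1.18 without 6 months replicate 2 at 108.8 CPM. For ponzr10 the fall was 2.58 (SE 0.62), and 1.78 without 6 months replicate 1 at 63.2 CPM. The teneurin gene ODZ1 fell by 2.02 (SE 0.59), with 70.23 CPM in 6 months replicate 3 beside 33.1 to 35.1 CPM in the others, and the call was lost without any of 7 libraries. The fall of ODZ1 was 2.81 without 12 months replicate 3, whose level of 27.3 CPM stood far above the 4.57 to 9.29 CPM of the other 12 month libraries.

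Fold changes moved with gene length. The length implied by the deposited count and RPKM values was used to sort genes with a mean log2 CPM of at least 1 into 8 bins. The median fold change fell in each step from 0.13 in the bin of the shortest genes, 62 to 1059 bases, to -0.09 in that of the longest, 4992 to 100444 bases. In the shortest bin 165 genes were higher and 67 lower, and in the longest 33 were higher and 155 lower. Across 16618 genes the rank correlation of a library's deviation with length was 0.053 to 0.127 in the 5 libraries of 6 months and -0.125 to -0.038 in those of 12 months, which is a description over genes and not over replicates. The mitochondrial ribosomal protein genes had a median implied length of 1042 bases, the proteasome genes of 1444 bases, and ribosome biogenesis genes of 2194 bases beside 2037 bases over all genes. The ribosomal protein genes, with a median of 1061 bases, had no call, and the cause of this contrast was not tested. With the trend on length removed, an alternative chosen after the data were seen, 1811 genes differed, 846 higher and 965 lower, and 1598 of the 2031 were kept. Ribosome biogenesis then had 36 genes higher, the condensin and spindle group 10 lower, mitochondrial ribosomal proteins 23 higher and the proteasome 3 higher.

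**Figure D5:**
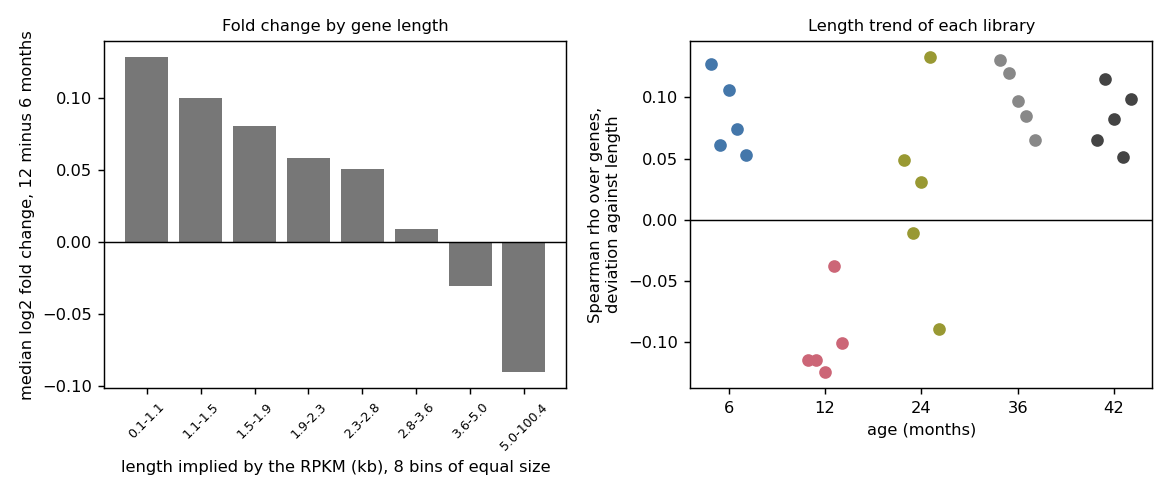
Left, median log2 fold change of 12 minus 6 months (bars) in 8 bins of implied gene length (x axis, kb). Right, rank correlation over genes of each skin library's deviation with length (y axis) at 5 ages (x axis, months; points are libraries). The median falls from 0.13 to -0.09, and the libraries lie at 0.053 to 0.127 at 6 months and -0.125 to -0.038 at 12 months.

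The same age step was compared with that of brain. In brain 2093 of 24756 genes differed between 12 and 6 months, 3.5% higher and 4.96% lower, but each 6 month brain library there is a pool of 2 fish, so that pooling, age and line cannot be told apart. The difference between the tissues was itself called for 624 of 24756 genes (2.52%), of which 262 were among the 2031 genes called in skin. With limma voom it was called for 257 genes, and for 454 when tissues of the same fish were paired as a replicate block. A 6 month brain pool that held a skin fish was put in the block of that fish, although it also held another fish. Mitochondrial ribosomal proteins had 9 of 77 genes higher in brain with a median of 0.23, ribosome biogenesis 5 of 105 with 0.16, the proteasome 0 of 37 with 0.13, and condensins and spindle 1 of 17 lower with -0.41. The tissues differed for 0, 1, 0 and 0 genes of these groups, so their larger counts in skin are not shown to be particular to skin. The difference was called for 5 of 31 aminoacyl tRNA synthetases, which had 0 calls in brain. It was called for 2 of 31 genes of the pentose phosphate, serine and nucleotide group and for 0 of 40 of tRNA modification. These last 3 groups were written after skin values were seen. For fosb, etv5b, bmp7a, DDX11 and TNFRSF11B the skin fold change exceeded that of brain by 3.71 (SE 0.86), 1.37 (SE 0.26), 1.11 (SE 0.20), 2.47 (SE 0.38) and 3.66 (SE 0.48). These genes were named for their change in the same skin libraries, which favours such a difference. The gene si:dkeyp-1h4.8 rose in brain as well, by 5.89, and so did PARP6 (1 of 2), by 1.14, which was 4.26 less than in skin.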

How the data were processed

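RNA was sequenced single-end, and the authors deposited raw counts of reads per gene and RPKM values (reads scaled to gene length and depth) made with CASAVA 1.8.0, TopHat2 2.0.6 and HTSeq on build Zv9, which the submitters' processing notes name. The named kit keeps no strand, which leaves overlapping and antisense genes uncertain. Counts of 25 skin libraries were filtered with filterByExpr, scaled by TMM and fitted with edgeR 4.0.16 (quasi-likelihood, robust; R 4.3.3), with age as the only factor, and p-values were adjusted by Benjamini-Hochberg over 22429 genes. RPKM served only to derive gene lengths. The skin minus brain difference was fitted over both tissues. DESeq2 1.42.0, limma voom 3.58.1, RLE scaling, no filter, the 10 libraries alone, a muscle covariate and leaving out each library were tried. Tested on simulated data for this comparison (22222 genes, 200 changed), the test recovered 39% of 2-fold and 82% of 4-fold changes. Of its 131 calls 10 were false. Fewer genes were changed there than the 2031 called in the data, so the shares recovered in the data can differ. Named genes were the 12 highest and lowest called symbols whose groups did not overlap (mean log2 CPM from 1), and in each of 46 lists (1401 genes tested, 102 called) the 3 called genes of smallest p per direction, besides tissue markers and kdrl. Other named genes and 12 further lists were chosen after values were seen. The members and lists were chosen with earlier results of these data known. Of 32677 rows 351 carried no symbol. Sequences and 2 libraries in no group were not used here. Some results are not reported here.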

Additional observations from a re-analysis of the deposited data

Results flagged for a closer look

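In 7 of 178 groups of 5 libraries looked at over the named genes, 1 library stood far from the other 4, and chance gives about 5% of groups. These were ca15c in 12 months replicate 2 at 0.638 CPM beside 0.022 to 0.0816 CPM, CD180 (1 of 2) in 12 months replicate 3 at 1.15 CPM beside 1.56 to 1.70 CPM, and ODZ1 in 6 months replicate 3 at 70.23 CPM beside 33.1 to 35.1 CPM. The others were mgp in 12 months replicate 4 at 19.8 CPM beside 10.4 to 12.1 CPM, socs3a in 12 months replicate 2 at 130.5 CPM beside 320 to 452 CPM and il34 in 6 months replicate 2 at 20.3 CPM beside 0.541 to 0.857 CPM. For prg4a, the lubricating proteoglycan of joints, 12 months replicate 4 stood at 66.8 CPM beside 0.364 to 0.945 CPM, and its rise of 4.07 was -0.41 without that library.

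For 25 of 89 named genes the age difference in skin was itself different from that in brain in edgeR's test at an adjusted p under 0.05. Over all genes this was so for 624 of 24756 (2.52%). Of the named genes 88 were called in the same skin libraries, which favours such a difference, so the larger share is no evidence. The skin minus brain difference on the log2 scale was 8.39, 6.81 and 4.51 for FUT9 (9 of 16), FUT9 (10 of 16) and FUT9 (11 of 16), 4.26 for PARP6 (1 of 2), 3.66 for TNFRSF11B, 1.98 for mt2 and 2.47 for DDX11. It was 2.51 for fgfbp1, 2.61 for kcnj1, 2.08 for ca2, 3.71 for fosb, 1.97 for hlfb, 0.75 for gpia, 1.37 for etv5b, 1.11 for bmp7a and 3.51 for ncanb, a proteoglycan gene. Genes with the difference in the lower direction were ca15c at -7.96, B3GNT3 (2 of 4) at -4.57, pcp4b at -2.78, ptprc at -1.14, cry5 at -1.59, lonrf1 at -0.92, pfkfb3 at -1.80, ggps1 at -0.83 and pparg at -1.16. The brain libraries of 6 months are pools of 2 fish, while those of skin are not.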

How the results depend on the processing

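Against 2031 genes (1066 higher, 965 lower) DESeq2 called 2949 (1481 and 1468) and the 10 libraries alone 1435 (676 and 759). RLE scaling gave 1954, no filter 1661, limma voom 1747 and the muscle covariate 2410. With 1 library left out there were 1192 to 2052 genes, 570 to 1083 higher and 537 to 971 lower, and 48 to 110 list genes against 102. Of 88 named genes with a call 56 to 71 then kept it, 88 under DESeq2 and 70 under limma voom. The direction turned in prg4a alone, with -0.41 to 4.40 when 1 library was left out and -0.41 without 12 months replicate 4. The cause of these shifts was not tested. The simulation, with 200 genes changed, recovered 39% of 2-fold changes. That share need not hold for these data, where 2031 genes were called, and smaller changes can be missed. The part of depth was not tested.

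No paired analysis was possible because the 6 and 12 month skin libraries come from different fish. For the skin minus brain difference, fish shared by tissues can be a replicate block: limma voom called 454 genes with the block and 257 with no block, all 257 shared, against 624 with edgeR.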

Other observations

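A further gene family was looked at after its members had been seen among the called genes. Of 43 copies of NLRX1, a family of NOD-like receptor genes that is much expanded in fish, 4 were lower (9.3%, against 4.3% of all genes) and 2 higher (4.65%, against 4.75%), and reads of near-identical copies are uncertain. NLRX1 (6 of 54) was at 25.06, 24.18, 19.14, 23.58 and 19.86 CPM at 6 months and at 9.52, 8.66, 7.61, 5.50 and 1.495 CPM at 12 months (fell by 1.77, SE 0.38, adjusted p = 0.00777). NLRX1 (11 of 54) went the other way, from 0.0907 to 0.228 CPM to 0.456 to 2.55 CPM (3.25, SE 0.90, lost without any of 4 libraries).

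Hox genes, which hold positional identity along the body, had 0 of 43 genes called, 41 fold changes above 0 and a median of 0.55. Without 6 months replicates 1 and 2, an alternative chosen after the data were seen, the median was 1.00 and 22 of the 43 were higher. Over all genes 1425 were higher and 1221 lower in that fit. The share of all genes tested there is not given here, so the Hox count is a description only.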
